A study of Homo sapiens with 4 samples.

Results

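Interferon response genes were followed in RNA-seq of BE(2)C cells, a human neuroblastoma cell line with amplified MYCN that was derived as a clone of SK-N-BE(2). The 9 genes were taken by their symbol: STAT2, IRF9, BST2, ISG15, IFI6, IFIT1, IFIT2, IFIT3 and B2M. All 9 were among the 26364 genes listed in each sample. Of the 9, 6 had a mean of at least 1 RPKM (reads per kilobase of gene, scaled to the total of reads in a sample) and entered the test, which covered 11411 genes. The control group (Ctrl, n = 2) received a non-targeting siRNA, and the MYCN knockdown group (MYCN KD, n = 2) received siRNA against MYCN. Per the labels, both groups were incubated with 80 nM siRNA and Lipofectamine 2000 for 6 h, and RNA was extracted on the next day. Both groups thus carried an siRNA and a lipid reagent, no sample without transfection was used here, and the knockdown and the sequence of its siRNA cannot be told apart.

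STAT2 and IRF9, which encode subunits of the transcription factor of the type I interferon pathway, rose in MYCN KD to 2.81 and 3.57 times their mean RPKM in Ctrl. BST2, a membrane protein that tethers budding virus particles, rose to 2.11 times. IFI6 and B2M, the 2 most abundant of the 9, did not pass the test, nor did ISG15. IFIT1, IFIT2 and IFIT3, which are among the strongest targets of type I interferon in most cells, stayed at or below 1.04 RPKM in every sample. Of the 6 tested genes 3 were thus called higher, where 25.3% of all 11411 genes tested were (limma, adjusted p under 0.05). In bulk RNA, more RNA per cell and more cells that express a gene cannot be told apart.

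Type I interferons bind a receptor of IFNAR1 and IFNAR2 chains, whose kinases JAK1 and TYK2 phosphorylate STAT2 and other STAT proteins. STAT2 joins IRF9 in the complex ISGF3, which binds the interferon-stimulated response element (ISRE) in promoters of interferon-stimulated genes. Interferon gamma instead acts mainly through the gamma-activated site (GAS). STAT2, IRF9 and many other parts of the pathway are themselves interferon-stimulated genes, and MYCN protein with its partner MAX binds E-boxes.

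Promoter sequences are shown for the 6 tested genes, first the 3 that rose and then the 3 that did not pass the test, since they differ in which of these elements they hold. The RefSeq table (GRCh38.p14, 250 bases before to 50 bases after each start site) held a promoter for 8 of the 9 genes, and each was found once in GRCh37, the build of the files, by an exact match. IFIT2 had no entry. Each line holds the 120 bases from position -160 to -41 relative to the start site, read 5′ to 3′ on the strand of the gene, with matches to a motif in capitals. The window was set to hold all matches found in the 8 genes.
IRF9: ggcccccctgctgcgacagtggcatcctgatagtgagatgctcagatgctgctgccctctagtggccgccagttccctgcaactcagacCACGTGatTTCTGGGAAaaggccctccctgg
STAT2: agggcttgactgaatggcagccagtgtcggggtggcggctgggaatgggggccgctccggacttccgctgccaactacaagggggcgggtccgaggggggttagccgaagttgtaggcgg
BST2: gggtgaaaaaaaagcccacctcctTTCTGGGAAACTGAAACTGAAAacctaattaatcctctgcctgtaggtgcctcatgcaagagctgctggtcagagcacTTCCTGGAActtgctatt
ISG15: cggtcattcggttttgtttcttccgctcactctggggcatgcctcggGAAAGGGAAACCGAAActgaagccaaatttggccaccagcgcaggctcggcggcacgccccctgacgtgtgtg
IFI6: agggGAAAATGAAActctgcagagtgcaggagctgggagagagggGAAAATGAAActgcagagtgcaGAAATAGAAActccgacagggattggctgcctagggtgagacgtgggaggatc
B2M: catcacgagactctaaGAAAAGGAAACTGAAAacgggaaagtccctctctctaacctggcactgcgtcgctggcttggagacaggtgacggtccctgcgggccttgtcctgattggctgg

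These windows lie at chr14:24630314-24630433 on the plus strand for IRF9, chr12:56753932-56754051 on the minus strand for STAT2, chr19:17516480-17516599 on the minus strand for BST2, chr1:948717-948836 on the plus strand for ISG15, chr1:27998744-27998863 on the minus strand for IFI6 and chr15:45003555-45003674 on the plus strand for B2M (GRCh37). Both strands were searched for the ISRE core GAAANNGAAA, for GAS as TTCNNNGAA and for the E-box CACGTG. An ISRE core was found in the promoters of 6 of the 8 genes, ISG15, IFI6, IFIT1, IFIT3, BST2 and B2M, against 3.57% of all 35116 promoters in the table. STAT2 held no match to any of the 3 motifs, and IRF9 held no ISRE core. The IRF9 promoter had an E-box from -71 to -66 and a GAS from -63 to -55, motifs found in 7.26% and 7.66% of all promoters. In BST2 a GAS from -136 to -128 overlapped an ISRE core from -130 to -121, which overlapped another from -124 to -115, and another GAS lay from -58 to -50. The ISRE cores of ISG15 (from -113 to -104 and -107 to -98) and of B2M (from -144 to -135 and -138 to -129) also overlapped in pairs, while the 3 cores of IFI6 were separate. By this pattern, BST2 was the only one of the 3 genes that rose to hold an ISRE core, and all 3 that did not pass held one. Looser forms of the motif were not searched. A match describes these letters only and does not show that a factor binds there.

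The samples rested on 29055819 to 34142988 reads as recovered from the RPKM values, of which the listed genes took 98.3% to 98.4%. Per the study's methods, RPKM came from counts that RUVSeq had normalized against unwanted variation. The recovered reads of a gene are thus normalized counts and not reads as sequenced. Whether the totals are of mapped or normalized reads is not given in the sources used here. Counting intervals treat the normalized counts as sequenced reads and cover no other error. MYCN, the target of the siRNA, had 1068 and 1073 RPKM in Ctrl against 720.2 and 718.0 RPKM in MYCN KD, and fell by 0.57 on the log2 scale (adjusted p = 0.00361, limma). Its RNA thus stood at 0.672 times the Ctrl mean. All 10 adrenergic neuroblastoma markers were expressed, with values from 23.8 RPKM to 2273 RPKM. Of these 10, 6 were called higher, 1 lower and 3 were not called, with a median log2 fold change of 0.36, and their part in the results below was not tested. The study's methods call the replicates biological, but nothing in the labels says that they were separate cultures. The p-values thus measure the spread between these samples that was left after unwanted variation was removed. This spread may be technical. The differences between replicate 1 and replicate 2 ran opposite in Ctrl and MYCN KD, with a Pearson correlation of -0.98 across 11411 genes, which are not independent replicates. The fits treat the spread in the 2 groups as independent, so standard errors, intervals and p-values do not allow for this. Of the 11411 genes tested, 25.3% were called higher in MYCN KD and 22.8% lower, with an adjusted p under 0.05 as the threshold. Against these shares, 3 of the 6 tested interferon response genes were called higher and 0 lower, and 0 of them were lower at an unadjusted p under 0.05 in limma (0 lower also with limma voom on the recovered reads). The median log2 fold change was 0.62 over the 6 genes and 0.03 over all genes tested. Of all 9 genes, 5 had both MYCN KD values above both Ctrl values (39.3% of the 19908 genes above 0 did), 1 had both below (26.3% did), and 3 overlapped.

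**Figure D1:**
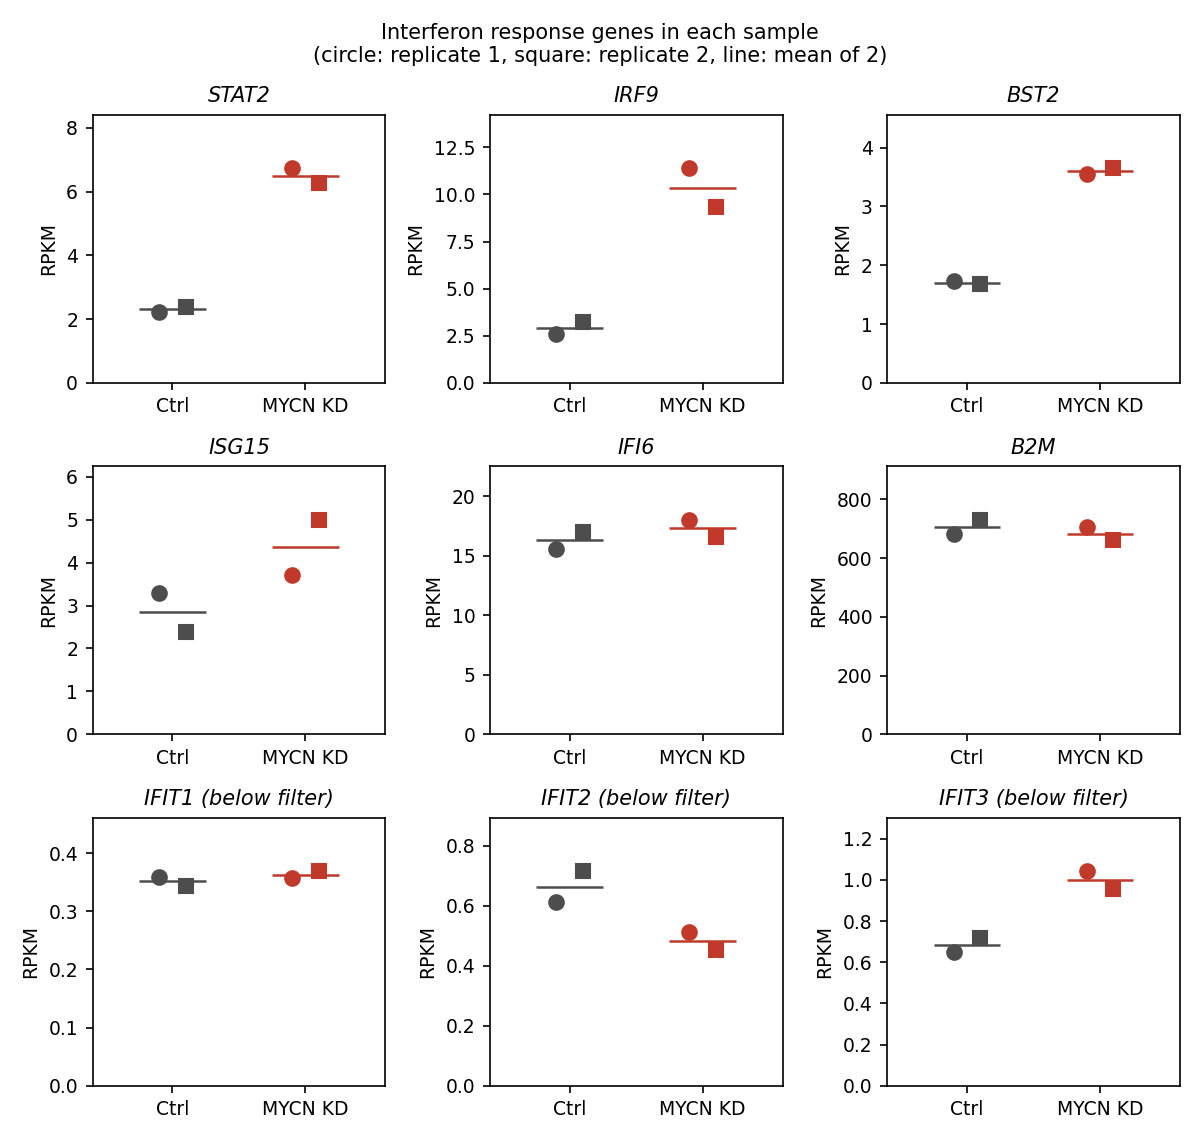
RPKM of the 9 interferon response genes in each of the 4 samples, on a linear axis from 0 that differs between panels, with circles for replicate 1, squares for replicate 2 and a line at the mean of 2. Both MYCN KD samples lie above both Ctrl samples for STAT2, IRF9, BST2, ISG15 and IFIT3 and below them for IFIT2, while IFI6, B2M and IFIT1 overlap.

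STAT2 lies on chromosome 12 from 56735381 to 56753987 on the minus strand (GRCh37, like all positions here). It had 2.23 and 2.39 RPKM in Ctrl against 6.72 and 6.27 RPKM in MYCN KD, from 347 and 348 reads against 889 and 883 reads. The values of each group lay close together and far from those of the other. The mean was 2.31 ± 0.112 RPKM (SD, n = 2) in Ctrl and 6.50 ± 0.320 RPKM (SD, n = 2) in MYCN KD, which is a log2 fold change of 1.18, taken on log2(RPKM + 1) (standard error 0.057, limma adjusted p = 0.00359 after Benjamini-Hochberg correction). This scale understates the change of genes with few RPKM. By the size of the rise STAT2 ranked 94 of 11411 genes.

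IRF9, the subunit of ISGF3 that recognises the ISRE, lies on chromosome 14 from 24630443 to 24637252 on the plus strand. It had 2.60 and 3.21 RPKM in Ctrl against 11.4 and 9.32 RPKM in MYCN KD, from 149 and 172 reads against 555 and 484 reads. It was the gene of the 9 with the largest change, and its replicates stood further apart than those of STAT2 in both groups. Its log2 fold change reached 1.54 (standard error 0.136, limma adjusted p = 0.00633), rank 29 of 11411 genes. In the annotation 2 unnamed genes overlap IRF9. Its upstream neighbour RNF31, a subunit of a ubiquitin ligase, is not listed as overlapping it. RNF31 had 21.4 and 19.6 RPKM in Ctrl against 21.1 and 23.0 RPKM in MYCN KD and was not called (limma adjusted p = 0.334).

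The proportion of the RNAs of these subunits of ISGF3 is given as a description only. STAT2 RNA per IRF9 RNA, as a ratio of RPKM within a sample, was 0.859 and 0.746 in Ctrl against 0.591 and 0.673 in MYCN KD. The groups did not overlap, but their nearest values, 0.746 and 0.673, were closer than the 2 values within either group. A two-sided exact permutation test gave p = 0.3333, the smallest that 2 samples against 2 allow, so it could not call a difference.

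**Figure D2:**
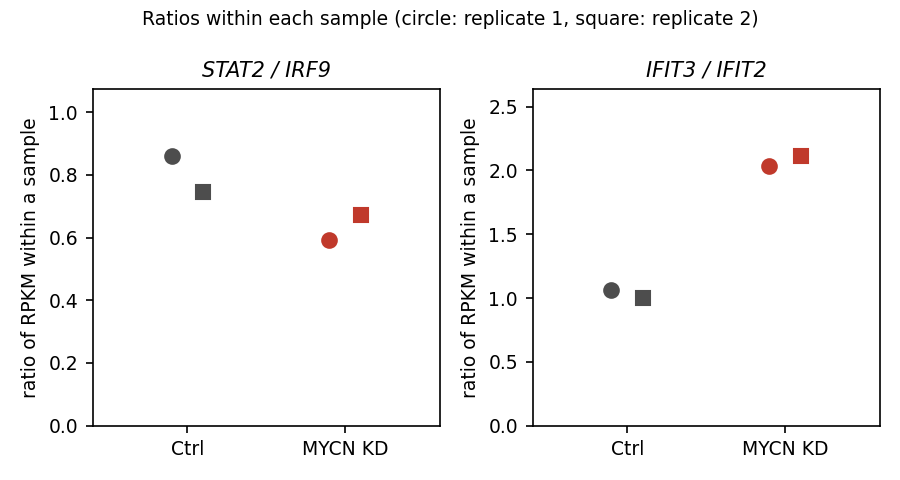
Ratios of RPKM within each sample, on linear axes from 0, for STAT2 to IRF9 and IFIT3 to IFIT2, with circles for replicate 1 and squares for replicate 2. Both MYCN KD samples lie below both Ctrl samples for STAT2 to IRF9, at 0.591 and 0.673 against 0.859 and 0.746, and above them for IFIT3 to IFIT2.

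RNA of the interferons themselves was at or near 0. Of 21 interferon genes of types I, II and III, 19 were listed at 0 in all samples, among them IFNB1 and IFNG. IFNK had 1 read in Ctrl replicate 1 and 1 in MYCN KD replicate 2, IFNW1 had 1 read in Ctrl replicate 1, and none of the 21 exceeded 0.0283 RPKM. A count of 0 limits the RNA level at this depth and does not show that the gene is silent.

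The receptor chains moved in both directions. Of 5 chains tested, 2 were called higher, 2 lower and 1 was not called. These counts, and those of the lists below, stand beside 25.3% called higher and 22.8% lower of all genes tested. IFNAR1, the type I chain bound by TYK2, rose from 8.12 and 9.22 RPKM in Ctrl to 13.5 and 11.9 RPKM in MYCN KD (log2 fold change 0.50, limma adjusted p = 0.0251). Its partner IFNAR2 had 4.91 and 4.79 RPKM in Ctrl against 4.96 and 5.10 RPKM in MYCN KD (limma adjusted p = 0.426). IL10RB, a chain shared by the receptors of interferon lambda and interleukin 10, rose from 6.97 and 6.70 RPKM to 12.3 and 12.8 RPKM (0.79, limma adjusted p = 0.00407). IFNLR1, the other lambda chain, was at most 0.211 RPKM. Both chains of the interferon gamma receptor fell. IFNGR1 went from 6.81 and 7.14 RPKM to 5.50 and 5.27 RPKM (-0.32, limma adjusted p = 0.0159), and IFNGR2 from 18.5 and 19.5 RPKM to 16.8 and 15.9 RPKM (-0.21, limma adjusted p = 0.0465). The calls of these 2 chains were weak: that of IFNGR1 was kept only without Ctrl replicate 1 (-0.35), and that of IFNGR2 was lost whichever sample was left out (-0.25 to -0.17). Here and below, a fit with 1 sample left out holds a lone sample in 1 group. Its p-values cannot be set beside those of the full fit, and a call kept or lost there describes that fit only.

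Among the kinases and STATs, 3 of 6 tested genes were called higher, STAT2 among them, 1 lower and 2 were not called. JAK1, which serves the receptors of all 3 interferon types, rose from 6.29 and 7.32 RPKM to 11.4 and 9.84 RPKM (0.57, limma adjusted p = 0.0253). TYK2 had 19.9 and 17.7 RPKM in Ctrl against 20.5 and 23.0 RPKM in MYCN KD (0.20, limma adjusted p = 0.157). STAT5A, which mainly serves cytokine and hormone receptors, rose from 0.783 and 0.850 RPKM to 1.64 and 1.52 RPKM (0.51, limma adjusted p = 0.00680). Its close paralog STAT5B fell by 0.17 (limma adjusted p = 0.0354), a call lost whichever sample was left out (-0.18 to -0.16). STAT3 had 45.3 to 45.7 RPKM in all 4 samples (95% interval of the log2 fold change -0.10 to 0.09). JAK2, JAK3, STAT4 and STAT6 were below the filter, at most 0.379 RPKM in a sample. In the fit without the filter, JAK2, JAK3 and STAT6 were higher (limma adjusted p = 0.0147, 0.0115 and 0.00807). STAT4 was not called there (limma adjusted p = 0.388). Of all 19908 genes in that fit, 17.0% were called higher.

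Of the interferon regulatory factors, 3 of 5 tested were called higher, IRF9 among them, 1 lower and 1 was not called. IRF7, which drives interferon alpha transcription, rose from 1.03 and 0.922 RPKM to 2.30 and 2.55 RPKM (0.80, limma adjusted p = 0.00518). IRF1, a target and mediator of interferon gamma, was called higher by 0.25 (limma adjusted p = 0.0366) and IRF3, which acts with IRF7 after nucleic acid sensing, was called lower (-0.19, limma adjusted p = 0.0270). Both of these calls were lost whichever sample was left out (0.21 to 0.29 for IRF1, -0.19 to -0.18 for IRF3). IRF2, at 0.19, was not called (limma adjusted p = 0.0997), and IRF4, IRF5 and IRF8 had at most 5 reads in a sample.

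**Figure D3:**
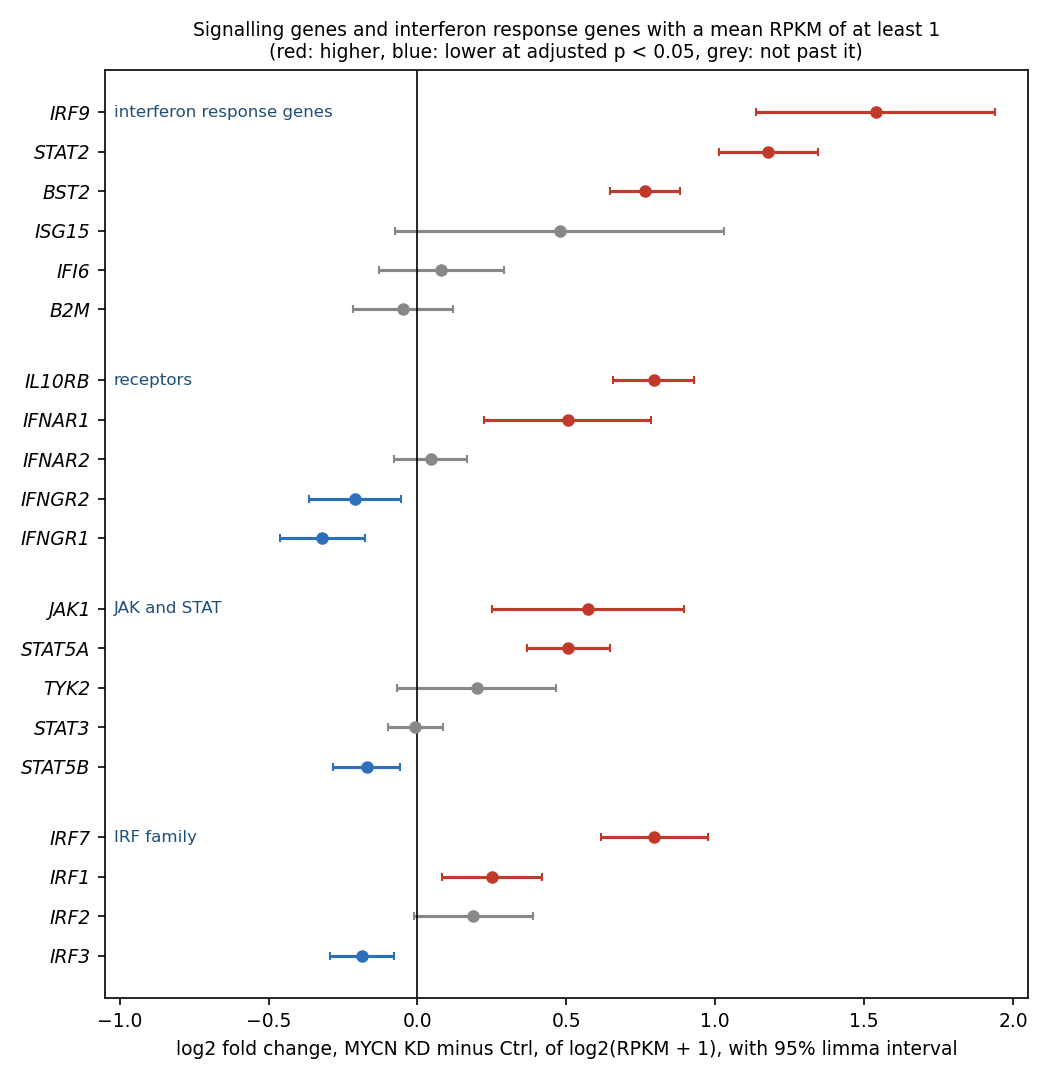
Log2 fold change of log2(RPKM + 1), MYCN KD minus Ctrl, with the 95% limma interval for the 6 tested interferon response genes and for the receptor, JAK, STAT and IRF genes above the filter of 1 RPKM. IRF9 and STAT2 lie furthest to the right, at 1.54 and 1.18, and the gamma receptor chains IFNGR1 and IFNGR2, STAT5B and IRF3 lie below 0.

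BST2 (tetherin) lies on chromosome 19 from 17513748 to 17516439 on the minus strand. It had 1.72 and 1.69 RPKM in Ctrl against 3.55 and 3.65 RPKM in MYCN KD, from 60 and 55 reads against 105 and 115 reads. Each group was tight, and the 2 groups stood apart. Its log2 fold change came to 0.76 (standard error 0.039, limma adjusted p = 0.00365), rank 496 of 11411 genes. The summed reads had exact 95% Poisson intervals of 94.9 to 138.0 reads in Ctrl and 191.9 to 251.1 reads in MYCN KD. These intervals treat normalized counts as sequenced reads.

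ISG15, a ubiquitin-like protein that is conjugated to other proteins after interferon, lies on chromosome 1 from 936518 to 949920 on the plus strand, a span that includes long annotated transcripts. It had 3.30 and 2.39 RPKM in Ctrl against 3.72 and 5.00 RPKM in MYCN KD, from 75 and 51 reads against 72 and 103 reads. Both MYCN KD values were above both Ctrl values, with the replicates of each group further apart than for any other of the 6 tested genes on the log2(RPKM + 1) scale. The log2 fold change, 0.48 (95% interval -0.07 to 1.03), did not pass the test (limma adjusted p = 0.116). Without Ctrl replicate 1 or MYCN KD replicate 1 it was 0.65, and without Ctrl replicate 2 or MYCN KD replicate 2 it was 0.31. Its size thus depended on which replicates were kept. The genes that attach or remove ISG15 were low: UBE2L6, its conjugating enzyme, and USP18, its protease, were at most 0.336 RPKM, UBA7, its activating enzyme, at most 0.176 RPKM, and HERC5, its ligase, at most 0.00919 RPKM. UBA7 had 7 and 5 reads in Ctrl against 14 and 18 reads in MYCN KD, while the groups overlapped for UBE2L6, USP18 and HERC5.

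IFI6, a small membrane protein that opposes cell death, lies on chromosome 1 from 27992575 to 27998723 on the minus strand. It had 15.6 and 17.0 RPKM in Ctrl against 18.0 and 16.6 RPKM in MYCN KD, and the groups overlapped. The log2 fold change was 0.08 (95% interval -0.13 to 0.29, limma adjusted p = 0.406). The interval thus leaves out a rise of the size of BST2, STAT2 or IRF9.

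IFIT2, IFIT3 and IFIT1 lie side by side on the plus strand of chromosome 10, from 91043451 to 91069028, from 91087064 to 91137230 and from 91152303 to 91166244. Their proteins bind viral RNA and often act as a complex. All 3 had a mean under 1 RPKM, and their tests come from a fit without the filter, in which 17.0% of 19908 genes were called higher and 13.0% lower. IFIT1 had 0.359 and 0.344 RPKM in Ctrl against 0.357 and 0.369 RPKM in MYCN KD, from 49 to 58 reads, and the groups overlapped (limma adjusted p = 0.624). IFIT3 had 0.650 and 0.716 RPKM in Ctrl against 1.04 and 0.956 RPKM in MYCN KD, from 63 and 65 reads against 86 and 84 reads (log2 fold change 0.25, limma adjusted p = 0.0324). IFIT2 had 0.612 and 0.716 RPKM in Ctrl against 0.512 and 0.453 RPKM in MYCN KD, from 73 and 80 reads against 52 and 49 reads (-0.17, limma adjusted p = 0.0854). IFIT3 was therefore called higher in this fit while both MYCN KD values of IFIT2 lay below both Ctrl values without passing the test. The ratio of IFIT3 to IFIT2 within a sample was 1.06 and 1.0002 in Ctrl against 2.04 and 2.11 in MYCN KD (p = 0.3333, two-sided exact permutation test, the smallest possible here). Transcripts of LIPA, a lysosomal lipase, are annotated across the 3 genes on the opposite strand. LIPA had 32.9 and 36.0 RPKM in Ctrl against 44.2 and 40.6 RPKM in MYCN KD (limma adjusted p = 0.0454, lost without Ctrl replicate 1 or MYCN KD replicate 1, where the log2 fold change was 0.23). Whether counting used strand is not given in the sources used here, so reads from LIPA and the IFIT genes cannot be told apart where they overlap.

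B2M, the light chain of MHC class I molecules, lies on chromosome 15 from 45003556 to 45011049 on the plus strand. It had 683.5 and 730.2 RPKM in Ctrl against 705.1 and 662.0 RPKM in MYCN KD, and the groups overlapped. The log2 fold change was -0.05 (95% interval -0.22 to 0.12, limma adjusted p = 0.524), and it was 0.01 and 0.07, with the opposite sign, when samples were rescaled to the same total or quantile normalized. It rested on 20218 reads or more a sample, so that counting error is small here. Other genes of MHC class I presentation were mixed. Of 20 genes 8 were tested, of which 2 were called higher, 1 lower and 5, B2M included, were not called. CALR, a chaperone of MHC class I assembly, rose by 0.44 (limma adjusted p = 0.0177). PSME1, a proteasome activator subunit, was called higher by 0.18 (limma adjusted p = 0.0225), a call lost whichever sample was left out (0.17 to 0.19). PSMB10, an interferon-inducible catalytic subunit of the immunoproteasome, fell from 21.8 and 19.6 RPKM to 12.2 and 13.6 RPKM (-0.64, limma adjusted p = 0.0122). Besides B2M, PDIA3, a disulphide isomerase of the peptide-loading complex, had the highest level of those not called (207 to 240 RPKM, limma adjusted p = 0.0532).

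Most HLA genes, TAP1, TAP2, PSMB8 and PSMB9 were listed at or near 0, and so were most genes of the stretch of chromosome 6 that holds them. Of 135 listed protein-coding genes from HLA-F to TAPBP, 118 (87.4%) were under 0.1 RPKM in every sample, against 254 of 772 (32.9%) elsewhere on this chromosome. They include CSNK2B, BAG6 and DDX39B, genes that most cells use, each at most 0.0391 RPKM in every sample. RPS18 and TUBB, also looked up in this stretch, were higher, at 0.471 to 1.19 RPKM and 3.91 to 4.12 RPKM. The values listed for these HLA, TAP and PSMB genes can thus not be read as their expression.

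Other interferon-stimulated genes gave a mixed picture of the same kind. A list of 80 of them, which shares genes such as IRF1, IRF7 and TRIM25 with the lists above and below, held 46 genes below the filter. MX1, MX2, IFI44, OASL and IFIH1, textbook targets of type I interferon, were at most 0.0470 RPKM in every sample, and IFI44L, IFITM1 and XAF1 were listed at 0. Not all genes below the filter were this low. In the fit without the filter, 19 genes of the list were called higher and 4 lower, beside 17.0% and 13.0% of 19908 genes. Of the 34 tested, 14 were called higher, 4 lower and 16 were not called, with a median log2 fold change of 0.15 beside 0.03 for all genes tested. With quantile normalization 12 were higher and 6 lower, beside 25.4% and 26.2% of all genes tested. The largest rise was that of IFI35, an interferon-induced protein that acts with NMI, from 1.03 and 1.20 RPKM in Ctrl to 4.68 and 4.06 RPKM in MYCN KD (1.34, limma adjusted p = 0.00426). HELZ2, a nuclear helicase and coactivator, rose from 0.827 and 0.858 RPKM to 3.08 and 2.96 RPKM (1.13, limma adjusted p = 0.00359). IFI27L2, a paralog of IFI27, rose from 40.8 and 38.0 RPKM to 76.7 and 82.0 RPKM (0.99, limma adjusted p = 0.00421). IRF7, described above, was the fourth.

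The 4 genes called lower were TRIM25, TRIM14, LY6E and ADAR. TRIM25, a ubiquitin ligase of the RIG-I pathway, fell from 17.1 and 16.4 RPKM to 9.02 and 9.41 RPKM (-0.80, limma adjusted p = 0.00407). TRIM14, an adaptor of antiviral signalling, fell by 0.37 (limma adjusted p = 0.00907). LY6E, a membrane protein that restricts coronaviruses, fell by 0.34 (limma adjusted p = 0.0307), and ADAR, which edits double-stranded RNA, fell by 0.31 (limma adjusted p = 0.00735). Among those that did not pass, LGALS3BP, a secreted glycoprotein, had 262.1 and 233.3 RPKM in Ctrl against 233.1 and 261.1 RPKM in MYCN KD (limma adjusted p = 0.978). OAS3, a sensor of double-stranded RNA, had 56.7 and 58.6 RPKM in Ctrl against 61.8 and 59.8 RPKM in MYCN KD (limma adjusted p = 0.193). The groups overlapped for LGALS3BP and did not for OAS3, whose difference was too small to be called.

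**Figure D4:**
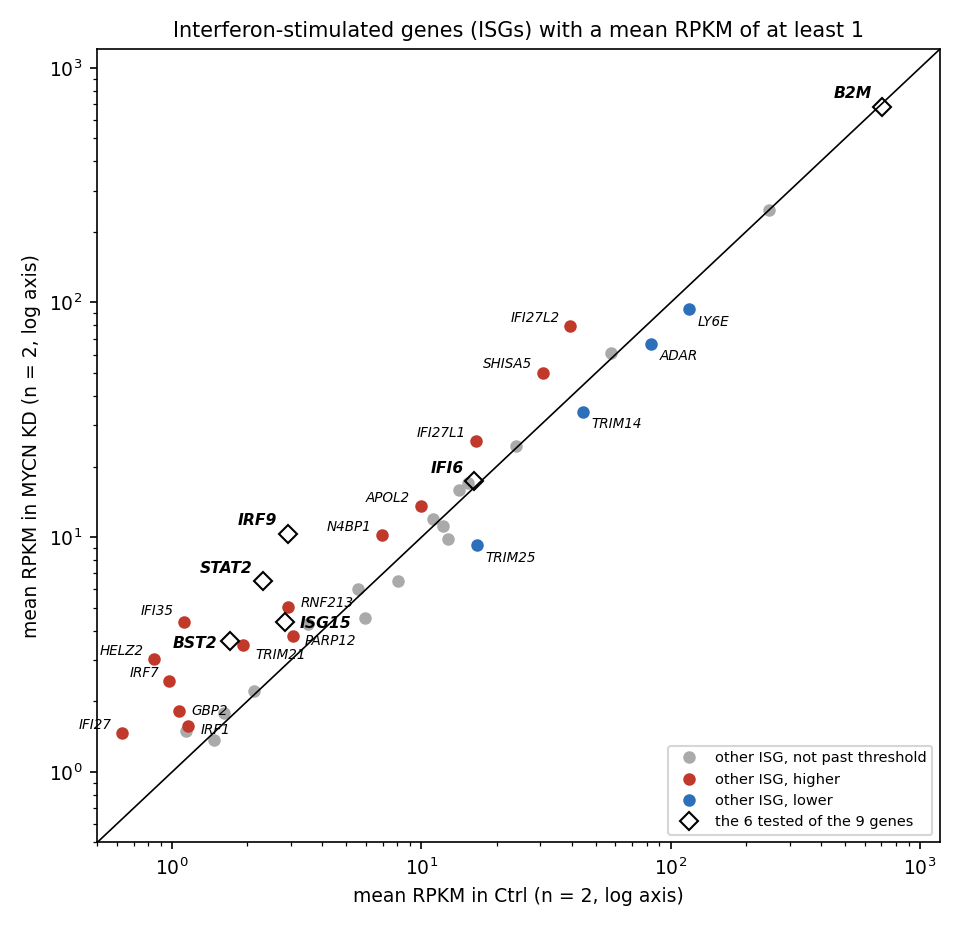
Mean RPKM in MYCN KD against mean RPKM in Ctrl (n = 2 each, both axes logarithmic) for the 34 tested genes of the list of other interferon-stimulated genes and, as diamonds, for the 6 tested interferon response genes, with the diagonal marking equal means. IRF9, STAT2, IFI35 and HELZ2 lie furthest above the diagonal, and TRIM25 furthest below it among the called genes.

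Genes that sense foreign nucleic acids and pass the signal on were also called in both directions. Of 24 such genes 10 were tested, of which 5 were called higher, 3 lower and 2 were not called. With quantile normalization 3 were higher and 3 lower. MAVS, the mitochondrial adaptor of RIG-I-like sensors, rose by 0.49 (limma adjusted p = 0.00626), and MYD88, the adaptor of most Toll-like receptors, by 0.42 (limma adjusted p = 0.00602). TBK1, the kinase that activates IRF3, was called higher by 0.43 (limma adjusted p = 0.0432), a call lost without MYCN KD replicate 1 (0.34). TRAF6, a ubiquitin ligase of the same pathways, was called higher by 0.28 (limma adjusted p = 0.0465), a call lost without Ctrl replicate 1 or MYCN KD replicate 1 (0.22). Besides TRIM25, TRAF3, an adaptor between MAVS and TBK1, fell from 11.4 and 11.8 RPKM to 6.47 and 6.28 RPKM (-0.77, limma adjusted p = 0.00391). IRAK1, a kinase of the Toll-like receptor pathway, fell by 0.31 (limma adjusted p = 0.0448), a call lost without Ctrl replicate 1 or MYCN KD replicate 1 (-0.25). EIF2AK2, the RNA-activated kinase PKR, had 11.4 and 14.2 RPKM in Ctrl against 10.8 and 8.78 RPKM in MYCN KD and was not called (limma adjusted p = 0.142). It passed without Ctrl replicate 1 or MYCN KD replicate 1, at -0.50 and -0.49. UNC93B1, which carries Toll-like receptors to endosomes, had a difference of 0.11 on the log2 scale (limma adjusted p = 0.223), with the opposite sign under another scaling.

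Genes that mark interferon gamma output were mostly below the filter, 12 of 15. GBP2, an interferon-induced GTPase, rose by 0.44 (limma adjusted p = 0.0157), IRF1 is given above, and WARS, a tRNA synthetase induced by interferon gamma, had 88.8 to 93.6 RPKM (limma adjusted p = 0.800). Of 13 negative regulators of the pathway 8 were tested, of which 2 were called higher and 0 lower (limma, also 0 lower at an unadjusted p under 0.05). PIAS3, an inhibitor of STAT3, and PTPN1, a phosphatase of JAK2 and TYK2, were called higher by 0.24 and 0.19 (limma adjusted p = 0.0224 and 0.0203), calls lost whichever sample was left out (0.22 to 0.27 and 0.19 to 0.20). Of those not called, PTPN11, a phosphatase that also acts in growth factor signalling, had 31.4 and 37.1 RPKM in Ctrl against 28.7 and 24.4 RPKM in MYCN KD (limma adjusted p = 0.0975). It passed without Ctrl replicate 1 or MYCN KD replicate 1 (-0.47 and -0.46). PIAS4, a SUMO ligase, had 25.4 to 29.9 RPKM (limma adjusted p = 0.780).

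Over all pathway lists without the 9 genes, 192 genes in all, 77 were tested, of which 32 (41.6%) were called higher, 12 (15.6%) lower and 33 were not called, beside the 25.3% and 22.8% of all genes. Not all of these calls were kept with each sample left out in turn. Leaving out Ctrl replicate 1 or MYCN KD replicate 1 gave near-equal log2 fold changes (0.648 and 0.651 for ISG15). So did leaving out Ctrl replicate 2 or MYCN KD replicate 2 (0.308 and 0.305). The fits with 1 sample left out thus repeat each other in pairs and are not separate checks. Quantile normalization gave 26 higher and 14 lower (25.4% and 26.2% of all genes tested), and rescaling samples to the same total gave 34 and 9 (28.7% and 18.6% of all genes). These lists were chosen with earlier results of these data known, and their median of 0.18 is a description only.

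Most markers of other cell types were low. PTPRC, which marks all white blood cells, had at most 1 read in a sample, and CD3D, CD2, ITGAM and TYROBP were listed at 0. Of 14 immune markers, 12 were below the filter. The list summed to 6.41 and 5.46 RPKM in Ctrl against 11.3 and 13.6 RPKM in MYCN KD, most of it from CD68. CD68, a lysosomal protein, rose from 4.26 and 3.45 RPKM to 9.40 and 11.5 RPKM (1.23, limma adjusted p = 0.00918). All 5 endothelial markers were below the filter, with sums of 0.291 and 0.373 RPKM in Ctrl against 0.658 and 0.522 RPKM in MYCN KD. The 8 fibroblast markers summed to 23.1 and 25.3 RPKM in Ctrl against 31.3 and 28.6 RPKM in MYCN KD, and 3 of the 4 tested, COL1A1, DCN and PDGFRB, were called higher. The call of PDGFRB was lost whichever sample was left out (0.14 to 0.19). The part of these genes in the results above was not tested.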

How the data were processed

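RNA-seq was measured in 4 samples of BE(2)C cells, 2 of Ctrl and 2 of MYCN KD, grouped by the sample labels. The authors aligned the reads with HISAT2 2.1.0 (hg19), ran featureCounts over RefSeq genes, used DESeq2 for modelling and RUVSeq against unwanted variation, and deposited RPKM values computed from the normalized counts. The RUVSeq variant, the number of factors removed and the strand setting are not given in the sources used here. The counts before normalization were not analysed here.

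On log2(RPKM + 1), limma 3.58.1 (R 4.3.3; lmFit, then eBayes with trend) was fitted to all 11411 genes whose mean reached 1 RPKM, with Benjamini-Hochberg adjustment over all of them and a threshold of 0.05. Tested on simulated data, this fit made more false calls than the threshold allows for. Those data had independent samples and few changed genes, unlike the samples here, so the share of false calls here is not known. Of the 26364 listed genes, 6456 were at 0 in all samples. The 3 interferon response genes under the filter, and other genes where stated, were read from the same fit without it. Reads were recovered from the RPKM values: small RNA genes of known RefSeq length set each sample's total (91.6% to 93.1% of 229 to 238 such genes came out whole within 0.01 reads), after which 19899 of the 19908 genes above 0 gave whole reads. Limma voom on these reads was an alternative. It called 2909 genes higher and 2585 lower.

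The 9 genes and the lists of pathway and marker genes were chosen with earlier results of these data known. Some genes are not reported here and were left out of the lists and their counts, but not of the fit. Named were the 9 genes, MYCN as the check of the knockdown, every receptor, JAK, STAT and IRF gene on the lists of at least 1 RPKM and, from each other pathway list, up to 4 genes with the largest called change in each direction and up to 2 of the highest genes not called. The ISG15 conjugation genes, genes listed near 0, RNF31, LIPA, the marker genes and the genes near HLA were named after their values were seen. Other alternatives were another pseudocount and filter, 2 scalings, eBayes without a trend, a replicate block and each sample left out. Gene spans came from GENCODE lifted to GRCh37 and promoters from RefSeq. The scripts used numpy 2.4.6, scipy 1.17.1, pandas 2.3.3 and matplotlib 3.10.9 under Python 3.11.15.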

Additional observations from a re-analysis of the deposited data

How the results depend on the processing

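Both groups have 2 samples, so a call rests on 2 residual degrees of freedom. The replicate differences of the 2 groups mirror each other (correlation -0.98). These 2 are thus not independent, and p-values may be too small. STAT2, IRF9 and BST2 were called higher under every alternative in which they passed the filter, with adjusted p from limma of at most 0.00745, 0.0121 and 0.00803. IFI6 and B2M were called under none, and the log2 fold change of B2M changed sign when samples were rescaled to the same total (0.013) and with quantile normalization (0.067). The median of the tested interferon response genes, 0.62, became 0.82 with a pseudocount of 0.1, 0.53 with quantile normalization and 0.84 with limma voom on recovered reads, and lay from 0.53 to 0.72 with 1 sample left out, where the lone sample of a group was assumed to vary like the other group. With a mean RPKM of at least 5, it was 0.080 over the 3 genes that remained, of which 1, IRF9, was called higher, and the genes called higher were 1868 in all (2890 before) and 5 of the other interferon-stimulated genes (14 before), since fewer genes were tested. Without Ctrl replicate 1 or MYCN KD replicate 1, 7 of those other genes were called lower (4 before; from 4 to 7 with 1 sample left out), and the cause was not tested. Same-numbered samples deviated in opposite directions (correlation -0.98), so the numbers do not pair them. With the replicate block, ISG15 kept its log2 fold change of 0.48 and was called higher (limma adjusted p = 0.0187), 2077 genes were called higher and 1851 lower, the 3 calls among the interferon response genes were kept, and 12 of the other interferon-stimulated genes were higher and 3 lower. A crossed replicate block, chosen after seeing the data as was limma voom on recovered reads, called 5910 genes higher and 5262 lower. For the IFIT genes, limma voom without the filter gave 0.55 for IFIT3 (adjusted p = 0.0272) and -0.45 for IFIT2 (adjusted p = 0.0738). Depth limits IFIT1, IFIT2, IFIT3, BST2 and ISG15, which rest on 49 to 115 reads a sample.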

Other observations

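Genes downstream of NF-kB, a pathway that nucleic acid sensors also feed, were measured beside those of interferon. Of 16 such genes 7 were tested, of which 5 were called higher and 1 lower, beside 25.3% and 22.8% of all genes tested. With quantile normalization 2 were higher and 1 lower, beside 25.4% and 26.2% of all genes tested. RELB, a subunit of the non-canonical pathway, rose from 1.17 and 1.04 RPKM in Ctrl to 1.82 and 2.02 RPKM in MYCN KD (0.47, limma adjusted p = 0.0119). NFKB2, its partner, had 3.38 and 3.02 RPKM in Ctrl against 4.26 and 4.75 RPKM in MYCN KD (0.39, limma adjusted p = 0.0280), a call lost without Ctrl replicate 2 or MYCN KD replicate 2 (0.33). NFKBIE, an inhibitor of NF-kB, was called higher by 0.34 (limma adjusted p = 0.0380), a call lost without the same samples (0.27 for each). TNFAIP2, a target of the pathway, was called higher by 0.33 (limma adjusted p = 0.00911), a call lost without MYCN KD replicate 1 (0.32). NFKB1, the subunit of the canonical pathway, fell by 0.32 (limma adjusted p = 0.0107), a call lost whichever sample was left out (-0.33 to -0.31). NFKBIA, the inhibitor that canonical signalling induces first, had 40.4 to 44.5 RPKM in the 4 samples (95% interval of the log2 fold change -0.17 to 0.22). TNF, IL6 and CXCL8 were below the filter.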
